A study of Bos taurus with 8 samples.

Results

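The 8 transcription factors FOXL2, GATA4, GATA6, NR5A1, NR5A2, NR0B1, WT1 and LHX9 are grouped here as granulosa identity factors. Granulosa cells are the somatic cells around the oocyte. Members were found as all probes of the array whose symbol in the platform annotation was one of these names. Of the 8 genes, 7 had a probe, and GATA6 had none under that symbol. They held 11 of the 43794 probes: 3 each for NR5A2 and WT1, and 1 each for FOXL2, GATA4, NR5A1, NR0B1 and LHX9.

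The cells were scraped from single dominant follicles over 9 mm of Holstein cattle, taken from slaughterhouse ovaries. Cellular DNA content, read by flow cytometry, placed each follicle in a growth phase. Follicles were ranked by the share of cells with full or duplicating DNA content, less the share with reduced content. The highest in this order were called growing and the lowest atretic, or regressing. The labels name no treatment, allele or age. Amplified RNA of 4 atretic and 4 growing follicles was hybridised on 8 two-colour arrays, 1 atretic with 1 growing follicle on each, and every such pair was repeated with the dyes exchanged. Each phase is therefore known through 4 follicles, and 4 pair ratios are the replicates of every test below.

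A follicle's granulosa layer keeps its type through a small network of such factors. FOXL2, a forkhead protein, holds ovarian cells apart from the testicular programme in adult mice. GATA4 and GATA6 are zinc finger proteins that act on steroidogenic and hormone genes. NR5A1 (SF-1) and NR5A2 (LRH-1) are closely related nuclear receptors that bind alike DNA sites, at the genes of steroid synthesis among others, and NR5A2 is needed in granulosa cells for ovulation in mice. NR0B1 (DAX-1) is a nuclear receptor without the usual DNA-binding domain that represses NR5A1. WT1, a zinc finger protein, and LHX9, a LIM homeodomain protein, act early, when the gonad forms in the mouse.

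Scanner signal over local background was 8.97 to 13.6 in Cy3 and 4.10 to 5.45 in Cy5 at the median probe, and 49.2% to 72.1% of probes in a channel exceeded the negative controls. For each channel of an array, the limit was set at percentile 95 of the 153 control spots, and it fell between 7.11 and 7.48 on the normalised log2 intensity scale. Dye-swapped arrays of a pair correlated at 0.620 to 0.778 over probes. Pair 1 ran against pair 3 (r = -0.37) and pair 2 (r = -0.22), while pairs 2, 3 and 4 correlated at 0.23 to 0.50 with each other. The dyes are stated in the labels, so the direction atretic over growing was kept for every pair.

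None of the 6 tested factors passed the adjusted threshold of 0.05 between atretic and growing follicles, and neither did any other tested probe. That share was 0 of 9 member probes tested, against 0% of 35489 probes with limma, where 2266 had an unadjusted p under 0.05 and the smallest adjusted p was 0.717. At the study's looser selection, a fold of at least 1.5 with an unadjusted p under 0.05, 1 of 9 member probes passed and was lower, beside a background of 3.63% of probes in either direction, 1.75% lower and 1.88% higher. In none of the 9 did all 4 pairs move the same way, which 14.6% of all tested probes did. The remaining 2 member probes, for LHX9 and 1 of WT1, lay below the mean log2 intensity of 7 that was required for testing. Because the RNA came from bulk cells, fewer cells of a type and less RNA per cell cannot be told apart in any of these ratios.

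**Figure D1:**
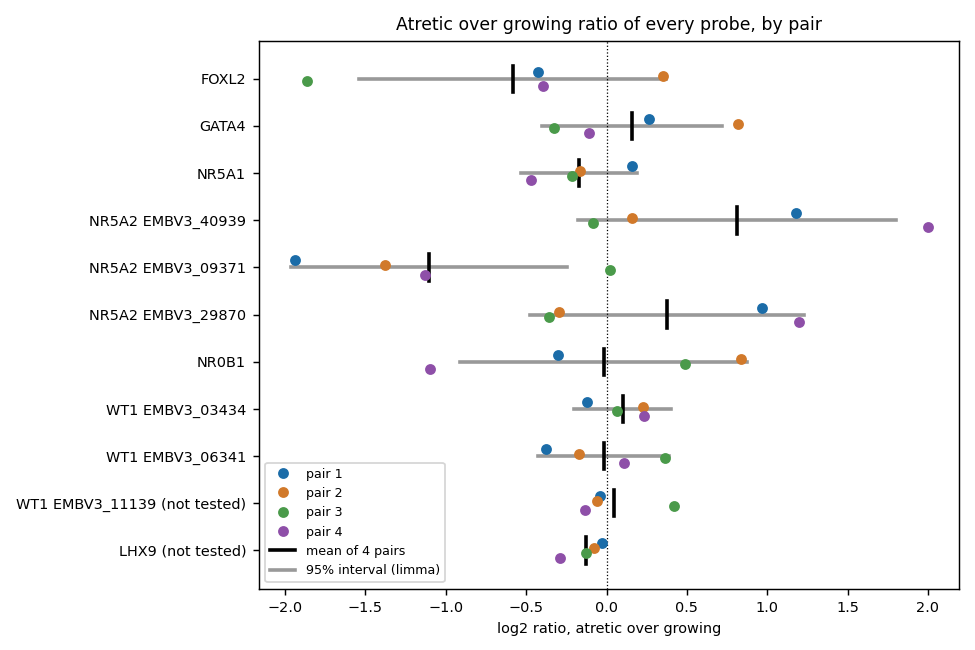
Log2 ratio of atretic over growing follicles for all 11 probes, with 1 point per pair of follicles (mean of its 2 dye-swapped arrays), the mean of 4 pairs as a black bar and the 95% interval of the limma fit in grey. The points of most probes lie on both sides of 0, and the interval of NR5A2 probe EMBV3_09371, from -1.97 to -0.25, is the 1 interval that leaves 0 out.

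NR5A2 was the member with the widest spread between follicles, and its probes did not move together. On the normalised log2 scale, probe EMBV3_40939, its brightest on average, read 13.87, 11.98, 13.44 and 15.00 for atretic follicles of pairs 1 to 4, against 12.69, 11.82, 13.52 and 13.00 in their growing partners. The atretic follicle of pair 4 was highest and both follicles of pair 2 were lowest, so the groups overlapped over most of their range. Its pair ratios were 1.18, 0.16, -0.08 and 2.00, a mean of 0.81 (SE 0.38, n = 4, adjusted p = 0.817), with a 95% interval of -0.17 to 1.80. In fold terms the mean was 1.76, and 3 of 4 pairs were higher in the atretic follicle.

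Probe EMBV3_09371, also annotated to NR5A2, went the other way. It read 11.87, 12.44, 12.71 and 11.85 in the atretic follicles, against 13.80, 13.83, 12.68 and 12.98 in the growing ones. Only the follicles of pair 3 crossed between the groups, the atretic one at 12.71 and the growing one at 12.68. The pair ratios were -1.94, -1.38, 0.02 and -1.13, with a mean of -1.11 (SE 0.33, n = 4, adjusted p = 0.746) and a 95% interval of -1.97 to -0.25. This was the probe that passed the study's selection. Leaving out pair 1 (-0.83), pair 2 (-1.02) or pair 4 (-1.10) lost that selection. With the pair as a block over 8 arrays in limma it had an adjusted p of 0.0884, and 0.126 with a dye term added.

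The third NR5A2 probe, EMBV3_29870, followed the brightest one at a mean ratio of 0.38 (SE 0.33, adjusted p = 0.884). Its levels were 10.34, 8.36, 9.88 and 11.03 in atretic follicles, against 9.38, 8.66, 10.24 and 9.83 in growing follicles, with pair ratios of 0.96, -0.30, -0.36 and 1.20. As for EMBV3_40939, atretic follicles 4 and 1 were highest and the pair 2 follicles lowest. The ratios of these probes correlated at 0.97 over the 4 pairs, whereas EMBV3_40939 and EMBV3_09371 gave -0.49.

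Pair by pair, the ratio of EMBV3_40939 exceeded that of EMBV3_09371 by 3.12, 1.54, -0.11 and 3.13. The mean gap of 1.92 on the log2 scale (SD 1.54, n = 4) had a two-sided p of 0.25 in an exact sign-flip permutation test, in which 4 pairs allow no p under 0.125. This gap was singled out after its values were seen. Across the 8 follicles, the levels of EMBV3_40939 correlated with those of EMBV3_29870 at r = 0.97 (rho = 0.98) and with those of EMBV3_09371 at r = -0.72 (rho = -0.76). These correlations are descriptions over 8 points that share arrays in pairs, and the negative one was -0.38 without the 2 follicles farthest from the median. When all 3 probes were averaged, the NR5A2 ratio was 0.03. The sources used here do not say which NR5A2 transcript each probe reads.

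**Figure D2:**
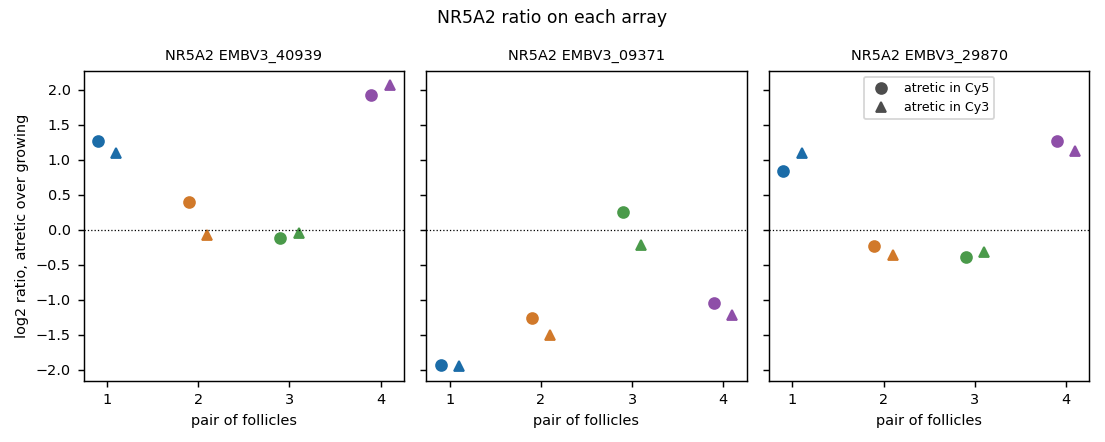
Log2 ratio of atretic over growing follicles for the 3 NR5A2 probes on each of the 8 arrays, circles where Cy5 labelled the atretic follicle and triangles where Cy3 did. Dye-swapped arrays lie within 0.47 of each other in all 3 panels, and pairs 1 and 4 are above 0 for EMBV3_40939 and EMBV3_29870 but below 0 for EMBV3_09371.

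The opposite readings of NR5A2 were repeated in both dye orientations. With the atretic follicle in Cy5, which held for all arrays of 1 slide, the mean ratios were 0.87 for EMBV3_40939 and -0.99 for EMBV3_09371. With the atretic follicle in Cy3, on the other slides, they were 0.76 and -1.22. All 16 channel values of each of the 3 probes exceeded the negative controls, and none was saturated.

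Of the named genes above the negative controls in all 16 channel values, the 3 whose level over the 8 follicles was most like NR5A2 EMBV3_40939 were VEGFC (r = 0.962), ZNF672 (r = 0.941) and PFKM (r = 0.941), taken from 6819 candidates. VEGFC encodes a vascular growth factor and PFKM a phosphofructokinase of glycolysis. PFKM read 11.72, 9.67, 10.89 and 11.90 in atretic follicles, against 9.53, 9.20, 10.78 and 10.17 in growing follicles. Atretic follicles 4 and 1 stood highest and the growing follicle of pair 2 lowest, as for EMBV3_40939, the probe that PFKM was picked to resemble. So many candidates over 8 follicles yield high correlations readily, and these are given without a test.

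CYP19A1, the aromatase that makes oestradiol, is a known target of NR5A receptors in granulosa cells. It ranged further than any member: 15.91, 8.79, 11.77 and 15.32 in atretic follicles, against 11.43, 7.40, 15.76 and 14.66 in growing follicles. Its ratios of 4.48, 1.39, -3.99 and 0.66 changed sign between pairs (mean 0.64, SE 1.36, adjusted p = 0.957). Over the 8 follicles, the level of NR5A2 EMBV3_40939 was higher where that of CYP19A1 was higher (r = 0.83, rho = 0.90, and r = 0.85 without the 2 follicles farthest from the median). EMBV3_29870 behaved alike (r = 0.90, rho = 0.88), and EMBV3_09371 was lower there (r = -0.61, rho = -0.64, and -0.26 without 2 such follicles). WT1 EMBV3_06341, a probe near the negative controls, gave r = -0.91 (rho = -0.95), so such a relation was not particular to NR5A2. Follicles share arrays here, so this too is a description.

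**Figure D3:**
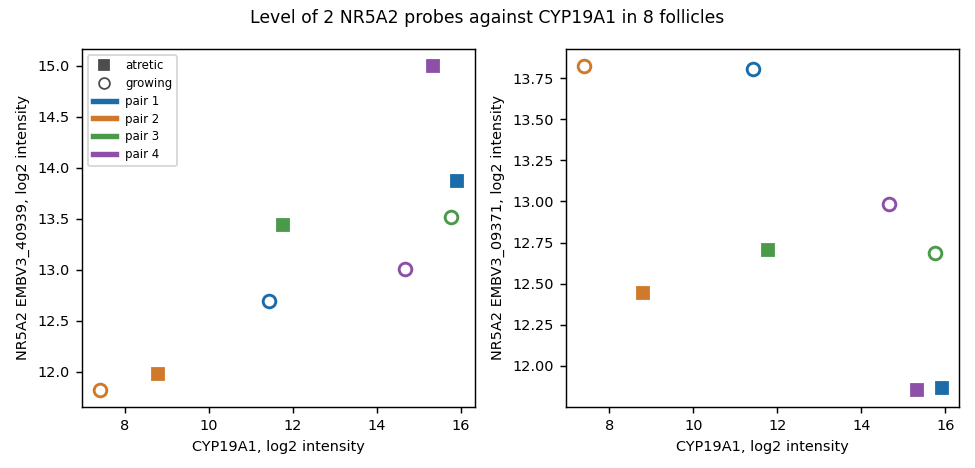
Normalised log2 intensity of NR5A2 probes EMBV3_40939 (left) and EMBV3_09371 (right) against CYP19A1, with 1 point per follicle, filled squares atretic and open circles growing, coloured by pair. The left panel climbs from the pair 2 follicles at 11.98 (atretic) and 11.82 (growing) to the atretic follicle of pair 4 at 15.00, and the right panel slopes down.

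NR5A1, the close relative of NR5A2, was dim and nearly level. It had 7.73, 7.66, 7.57 and 7.24 log2 intensity in atretic follicles, against 7.57, 7.83, 7.78 and 7.71 in growing follicles, and exceeded the negative controls in 7 of 8 atretic and 6 of 8 growing channel values. The atretic follicle of pair 4 was lowest and the other 7 lay within 0.09 of their neighbours in the order, less than the median gap of 0.31 between the arrays of a follicle. Pair ratios of 0.16, -0.16, -0.21 and -0.47 averaged -0.17 (SE 0.14, adjusted p = 0.877), with a 95% interval from -0.53 to 0.19. When Cy5 labelled the atretic follicle the mean was -0.48, and when Cy3 did it was 0.13. The sign of the mean thus changed with the dye orientation, which went with the slide, while both arrays had the same sign in 2 of 4 pairs.

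NR0B1, the repressor of NR5A1, varied between pairs without a shared direction. Its levels were 7.58, 7.83, 8.95 and 7.06 in atretic follicles, against 7.88, 6.99, 8.46 and 8.16 in growing follicles. Both follicles of pair 3 were highest, and the growing follicle of pair 2 and the atretic follicle of pair 4 were lowest and under the negative controls on both of their arrays. Ratios of -0.30, 0.84, 0.49 and -1.10 had the same sign in both dyes for 4 of 4 pairs, but averaged -0.02 (SE 0.35, adjusted p = 0.996, 95% interval -0.91 to 0.88), or 0.01 without background correction. Its level correlated with that of FSHR, the receptor of follicle-stimulating hormone, at r = 0.70 (rho = 0.79) over the 8 follicles, a description only. This correlation was picked from many. The LHX9 probe, near the negative controls, gave r = 0.74 (rho = 0.76) with NR0B1, so such a value was not particular to FSHR.

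FOXL2 was lower in 3 of 4 atretic follicles. Its only probe read 8.63, 7.83, 7.30 and 7.68 in atretic follicles (7.86 ± 0.56, SD) against 9.06, 7.47, 9.16 and 8.08 in growing follicles (8.44 ± 0.81, SD, n = 4 each). The growing follicles of pairs 3 and 1 were highest, yet the growing follicle of pair 2 lay below 3 of the atretic ones, so the groups overlapped. Pair ratios were -0.42, 0.35, -1.86 and -0.40, with pair 3 far below the others. The mean of -0.58, a 0.667-fold level, had an SE of 0.37 (adjusted p = 0.854) and a 95% interval from -1.54 to 0.37. Without pair 3 the mean was -0.16 and without pair 2 it was -0.90. FOXL2 exceeded the negative controls in 6 of 8 atretic and 8 of 8 growing channel values, and the 2 misses were the Cy3 readings of the atretic follicles of pairs 3 and 4.

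GATA4 was the steadiest of the bright members. It had 14.39, 14.72, 14.13 and 14.07 in atretic follicles, against 14.13, 13.90, 14.46 and 14.18 in growing follicles, and exceeded the negative controls in all 16 channel values. The range over all 8 follicles was 0.82, close to the median range of 0.80 over all tested probes. Ratios of 0.26, 0.82, -0.33 and -0.11 averaged 0.16 (SE 0.22, adjusted p = 0.927, 95% interval -0.40 to 0.72), or -0.06 without normalisation between arrays. In the order of levels, the follicles from the growing one of pair 4 (14.18) down to the atretic one of pair 4 (14.07) lay within 0.06 of the next, less than the median gap of 0.13 between the arrays of a follicle. The genes most like it were TUBGCP6 (r = 0.987), KDELR1 (r = 0.952) and MAD1L1 (r = 0.949).

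**Figure D4:**
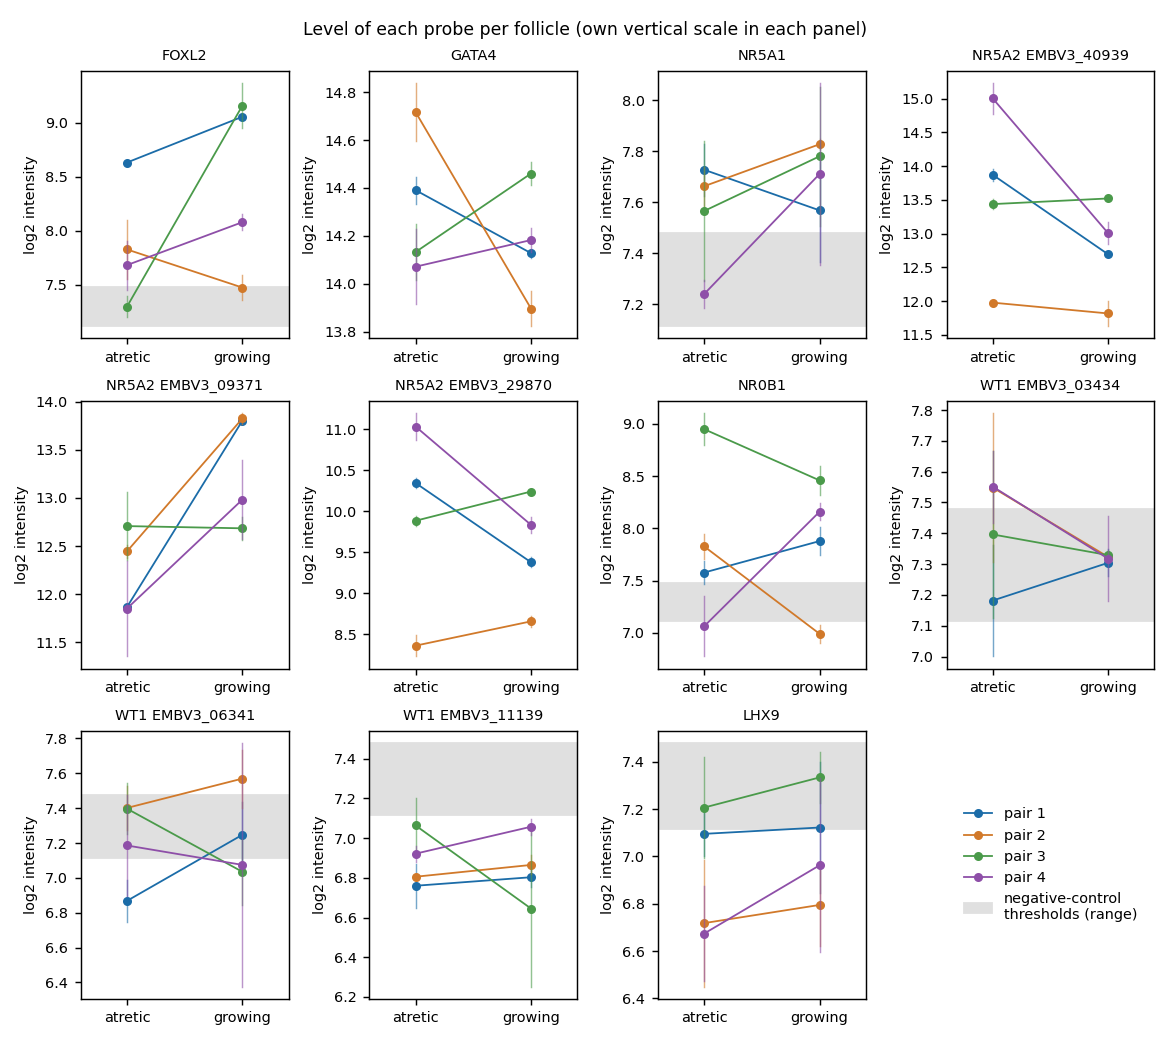
Normalised log2 intensity of each of the 11 probes in atretic (left) and growing (right) follicles, lines joining the follicles of a pair and vertical bars spanning both dye-swapped arrays, with the range of negative-control limits (7.11 to 7.48) in grey. GATA4 and the NR5A2 probes lie above the grey band, FOXL2, NR5A1 and NR0B1 reach into or under it, and WT1 and LHX9 lie mostly in or under it.

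WT1 was at or near the negative controls on all 3 of its probes. The brightest, EMBV3_03434, read 7.18, 7.55, 7.40 and 7.55 in atretic follicles, against 7.30, 7.32, 7.33 and 7.32 in growing follicles, above the controls in 5 of 8 and 4 of 8 channel values. Neighbouring growing follicles were 0.01 apart, against a median gap of 0.25 between the arrays of a follicle. Its mean ratio was 0.10 (SE 0.12, adjusted p = 0.913), and in 0 of 4 pairs did both dyes give the same sign. Probe EMBV3_06341 averaged 7.21 in atretic and 7.23 in growing follicles, a ratio of -0.02 (SE 0.16, adjusted p = 0.990), and passed the controls in 3 of 8 and 4 of 8 values. The last probe, EMBV3_11139, passed them in 0 of 16 and was not tested.

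LHX9 was likewise not well above background. It read 7.10, 6.72, 7.21 and 6.67 in atretic follicles, against 7.12, 6.79, 7.33 and 6.96 in growing follicles, and exceeded the controls in 1 of 8 and 2 of 8 channel values. Ratios were -0.03, -0.08, -0.13 and -0.29, lower in 4 of 4 atretic follicles with a mean of -0.13. That mean was 0.15 over arrays where Cy5 labelled the atretic follicle and -0.41 where Cy3 did, and no pair ratio exceeded the gap between the dye-swapped arrays of its pair. No test was made.

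The growing follicle of pair 2 lay at the low end for some member probes and at the top for others. It was the highest of 8 for NR5A2 EMBV3_09371 (13.83), NR5A1 (7.83) and WT1 EMBV3_06341 (7.57), each time with the next follicle within 0.17. It was the lowest of 8 for GATA4 (13.90, the next at 14.07), and for NR5A2 EMBV3_40939 (11.82) and NR0B1 (6.99) it shared the low end with the atretic follicles of pair 2 and pair 4, from which it differed by less than the gap between its own arrays (0.38 and 0.17). It also had the lowest level of CYP19A1, 7.40. The growing follicles of pairs 3 and 1 were the highest for FOXL2 (9.16 and 9.06), beside CYP19A1 levels of 15.76 and 11.43. Without pair 2, the mean ratios were -0.90 for FOXL2, -0.06 for GATA4, 1.03 for NR5A2 EMBV3_40939 and -0.30 for NR0B1, and none of them passed the adjusted threshold.

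Among genes known to act in granulosa cells downstream of these factors, 17 of 17 were tested, with 11 higher and 6 lower mean ratios in atretic follicles and a median of 0.22, where the median over all tested probes was 0.00 to 2 decimals. AMHR2, the receptor of anti-Müllerian hormone, was the 1 that passed the study's selection (5.88% of the list against 3.63% of all probes). The list's count was 5 without pair 1 and 0 without pair 4. Over all 35489 tested probes the count was then 3447 and 791, against 1289 with all pairs. AMHR2 read 10.47, 10.88, 10.07 and 9.67 in atretic follicles, against 10.23, 7.56, 8.44 and 8.40 in growing follicles. The pair 1 growing follicle overlapped the atretic ones and the other 3 growing follicles lay below all 4 of them. Its mean ratio was 1.61 (SE 0.50, adjusted p = 0.756), and leaving out pair 3 or pair 4 lost the selection while the ratio stayed at 1.61 and 1.73. CCND2, a cyclin of the granulosa cell cycle, had ratios of 2.18, -2.63, -3.67 and -2.32, and LHCGR, the receptor of luteinising hormone, 4.84, 0.95, -2.46 and 1.61. Pair 1 stood apart from the rest across the list, with a mean ratio of 2.32 over the 17 genes, against -0.46, -1.66 and -0.10 in pairs 2, 3 and 4.

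Genes of gonad formation (8 tested), of the female pathway (8), of the male pathway (9) and partners or cofactors of the factors (14) held none past the study's selection, which 3.63% of all probes passed. Without pair 1, it took in 3 partners, 1 gene of gonad formation and 1 of the male pathway, without pair 2, 1 of the female pathway, and without pair 3, 1 partner and 1 gene of gonad formation. Over all 35489 tested probes it then took in 3447, 1358 and 1139, against 1289 with all 4 pairs. In the gonad formation list, CITED2, a transcriptional coactivator, had ratios of -2.51, 3.13, 2.71 and 3.84, and EMX2, a homeodomain factor, -1.07, -0.29, 0.34 and -1.25. RSPO1, a WNT agonist of ovary formation in mammals, had ratios of -0.35, -0.26, -0.44 and -0.66. All 4 had the same sign, as in 14.6% of all tested probes, and the mean of -0.43 (SE 0.12, adjusted p = 0.721) was under the fold required. RSPO1 was near the negative controls, at 7.14 to 7.43 in atretic and 7.58 to 7.87 in growing follicles. It passed them in 6 of 8 atretic and 8 of 8 growing channel values. BMP2, a secreted growth factor of the female pathway list, gave 1.38, -1.54, 1.75 and 1.00. In the male pathway list, SOX9, which FOXL2 represses in mice, had a mean ratio of 0.04 (SE 0.10) and passed the controls in 5 of 8 atretic and 4 of 8 growing values. CLDN11 (mean -1.54) and AMH (mean -0.66) had the largest mean ratios there, both positive in pair 1 alone. The mean of CLDN11 rested on pair 2 (-5.67), whose growing follicle read 13.82, with the other growing follicles between 6.80 and 8.81.

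ZFPM1, a cofactor of GATA proteins, and SMAD2, a mediator of TGF-beta and activin signals, had the largest mean ratios among partners, 0.87 and 0.82. Each rested on pair 2. SMAD2 read 13.01, 12.88, 13.11 and 13.26 in atretic follicles, against 13.05, 9.86, 12.87 and 13.21 in growing follicles, so the pair 2 growing follicle was the low one. ZFPM1 had a ratio of 4.22 in pair 2, against 0.08, -1.13 and 0.32 in pairs 1, 3 and 4.

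Of 16 tested relatives of the members, 6 had higher and 10 lower mean ratios. Over the brightest tested probes of all named genes, 7026 were higher and 6386 lower. Of the relatives, 4 exceeded the negative controls in all 16 channel values, and many of the others lay near them. LHX2, a LIM homeodomain protein related to LHX9, was the 1 past the study's selection, or 6.25% of the list against 3.63% of all probes. It had 7.87, 6.12, 6.76 and 6.36 in atretic follicles, against 7.84, 7.90, 7.65 and 7.75 in growing follicles, and passed the controls in 2 of 8 atretic and 8 of 8 growing channel values. The growing follicles were alike and the atretic ones of pairs 2, 3 and 4 lay under the controls. The mean ratio was -1.01 (SE 0.32, adjusted p = 0.759), and the selection was lost without pair 2 (-0.75), pair 3 (-1.05) or pair 4 (-0.88). Its size changed with the background step, to -0.76 with plain subtraction and -0.63 with no correction. AMHR2, above the controls in every channel value, was likewise smaller, at 1.48 and 1.39. The cause was not tested. FOXO1, a forkhead protein of growing follicles, had ratios of -1.57, 3.80, 0.08 and 0.69, and NR4A1, an orphan nuclear receptor, -2.33, 3.88, 0.86 and -0.32.

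**Figure D5:**
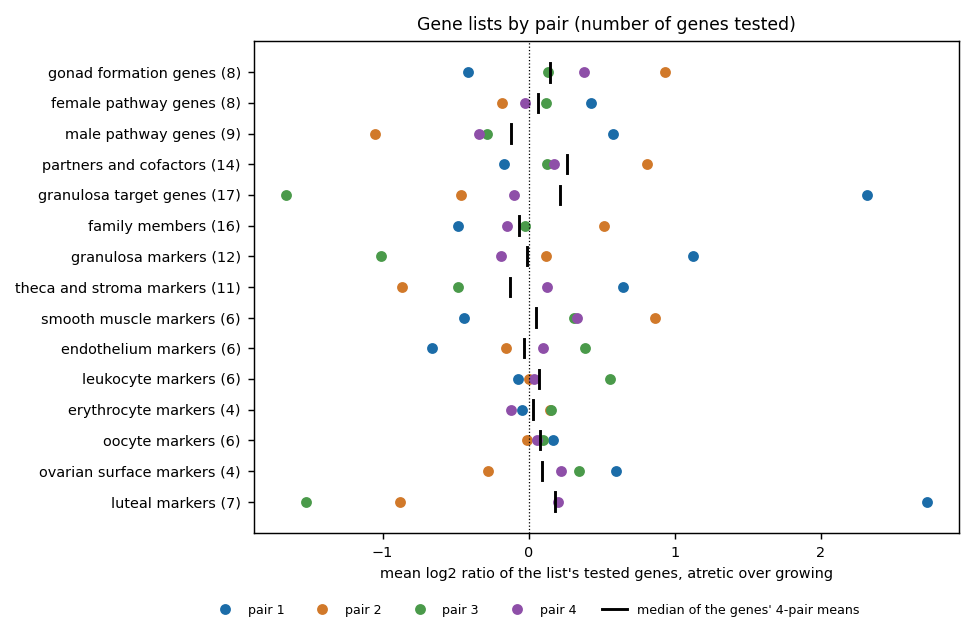
Mean log2 ratio of atretic over growing follicles over the tested genes of each list, 1 point per pair, with the median of the genes' mean ratios as a black bar and the number of tested genes in brackets. Granulosa target genes and luteal markers show the widest spread, with pair 1 at 2.32 and 2.73 and pair 3 at -1.66 and -1.53. These lists are not independent. Both hold STAR, HSD3B1, CYP11A1 and LHCGR, with pair 1 ratios of 4.28, 4.80, 3.47 and 4.84.

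All 12 granulosa markers exceeded the negative controls in all 16 channel values, and their mean level per follicle was 11.77 to 12.96 in atretic and 11.64 to 13.24 in growing follicles. Most of these markers, AMHR2 and CYP19A1 among them, are also on the list of target genes above. Their median ratio was -0.01 and their mean ratio 0.01, with pair means of 1.12, 0.12, -1.01 and -0.19. HSD17B1, which activates oestrogens, and GJA1, the gap junction protein connexin 43, had the largest mean ratios besides AMHR2, -1.04 and -0.75. SERPINE2 was saturated in 8 of 16 channel values and INHA and INHBA in 7 each, which limits their ratios. For 11 theca and stroma markers the mean level was 8.81 to 9.42 in atretic and 8.71 to 9.71 in growing follicles, and pair ratios were 0.65, -0.87, -0.48 and 0.12. CYP17A1, the defining enzyme of theca, read 9.49, 7.40, 7.34 and 7.16 in atretic follicles, against 7.70, 9.10, 9.11 and 7.58 in growing follicles, so atretic follicle 1 and growing follicles 2 and 3 were high. Endothelial (6 tested), leukocyte (6), erythrocyte (4) and oocyte markers (6) averaged 7.15 to 7.97 in atretic and 7.05 to 8.12 in growing follicles as lists, but not every gene was near the controls. PTPRC, the leukocyte antigen CD45, exceeded them in all 16 channel values. KDR, the VEGF receptor of endothelium, read 6.76, 9.54, 9.35 and 7.48 in atretic follicles, against 10.40, 11.02, 7.09 and 6.56 in growing follicles. Mean levels in atretic and growing follicles were 8.56 to 9.51 and 8.23 to 9.02 for smooth muscle (6), and 8.15 to 8.86 and 8.11 to 8.64 for ovarian surface markers (4). For luteal markers (7) they were 8.94 to 12.22 and 9.49 to 11.03. MYH11, a smooth muscle myosin, had ratios of -3.77, 4.70, 4.30 and 2.05 (mean 1.82, SE 1.51, adjusted p = 0.879). UPK1B was the 1 ovarian surface gene above the controls in all 16 channel values, at 10.32 to 12.27 in atretic and 10.97 to 12.17 in growing follicles. Among all marker lists only AMHR2 and KRT19 of the ovarian surface list passed the study's selection, which 3.63% of all probes passed. KRT19 had a mean ratio of 0.79 (SE 0.21, adjusted p = 0.717). It lost the selection without pair 3 (0.75) or pair 4 (0.65), with no background correction (0.58) and on arrays with the atretic follicle in Cy5 alone (0.56). The part of other cells in the members' ratios was not tested.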

How the data were processed

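The authors deposited scanner intensities of 8 arrays, as the median of each spot and of its local background in Cy5 and Cy3, on a linear scale with no background correction, with debris-covered spots (4 to 50 per array) marked by hand. The log2 ratios of Cy5 over Cy3 that the authors also deposited had been background-subtracted, loess-normalised within arrays and quantile-normalised between arrays. Rebuilt in that way from the intensities, ratios correlated with them at 0.999 to 1.00 per array, and the array medians of the deposited values were -0.02 to -0.01.

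Here, intensities were corrected by normexp (offset 50), loess-normalised with no weight on 1426 control spots of 45220, and quantile-normalised between arrays in limma 3.58.1 (R 4.3.3). Ratios were turned to atretic over growing, and the 2 dye-swapped arrays of a pair, numbered from the array titles, were averaged to give n = 4. For 8 of 8 arrays the most alike array was that of the same number. Probes had to reach 7 in mean log2 intensity, and the 35489 that did were tested against 0 with limma's empirical Bayes fit, two-sided, with Benjamini-Hochberg adjustment over all of them. SE and 95% intervals are those of this fit. A level is the log2 intensity of a follicle's channel, averaged over its 2 arrays, and is set only against the same probe, because probes differ in brightness. Arrays give no read depth, and their number limits the precision. Symbols came from the platform annotation (21790 probes with 1 symbol, others unnamed), list genes were read from their brightest probe, and older symbols gave no further match. The fit was tested on simulated ratios.

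The text names all members with every probe and, of the 15 gene lists, each gene past the study's selection and the 2 others with the largest mean ratio, plus CYP19A1 and CYP17A1. Markers of other cells are the exception and are given mostly by counts and levels. SOX9, FSHR, KDR, PTPRC, UPK1B, STAR, HSD3B1, CYP11A1 and the saturated SERPINE2, INHA and INHBA were chosen after their values were seen. Members and lists were chosen with earlier results of these data known. Whether follicles came from separate animals is not stated, so p-values cover only how these follicles vary. No sequence is shown, because none of the tables used here holds one for these genes.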

Additional observations from a re-analysis of the deposited data

Results flagged for a closer look

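In 33 groups of 4 values (atretic levels, growing levels and pair ratios of the 11 probes), 1 value stood apart from the other 3 by Dixon's criterion, and chance alone marks about 1 group in 20. It was the ratio of WT1 probe EMBV3_11139 in pair 3, which was 0.42 on the log2 scale with the nearest other pair at -0.04. The probe exceeded the negative controls in 0 of 16 channel values. The 2 arrays of pair 3 gave -0.11 with Cy5 and 0.95 with Cy3 on the atretic follicle, so 1 array carried the value.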

How the results depend on the processing

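FOXL2 and NR5A2 probes EMBV3_40939, EMBV3_09371 and EMBV3_29870 kept their direction in every alternative run, with mean ratios from -0.90 to -0.16, 0.42 to 1.11, -1.48 to -0.83 and 0.10 to 0.62 in that order, and 0.028 for the mean of all NR5A2 probes. No member passed the adjusted threshold in any alternative. GATA4 turned to -0.062 without normalisation between arrays and -0.062 with Aquantile, and spanned -0.059 to 0.32 as each pair was left out. NR0B1 became 0.0052 with no background correction and 0.12 with the growing follicle in Cy5 alone, and spanned -0.30 to 0.34 with a pair left out. On those same growing-in-Cy5 arrays, NR5A1 was 0.13 and WT1 was -0.14, while LHX9 was -0.41 there and 0.15 on arrays with the atretic follicle in Cy5. WT1 probe EMBV3_06341 turned to 0.028 on these last arrays and 0.047 with array weights, and spanned -0.15 to 0.10 with a pair left out. The causes were not tested.

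The number of probes past the study's selection, 1289 (668 higher, 621 lower), was 791 to 3447 with a pair left out (lowest without pair 4, highest without pair 1), 2582 (1576 higher, 1006 lower) with the atretic and 2247 with the growing follicle in Cy5 alone. With the pair as a replicate block over 8 arrays it was 2264, or 2184 with a dye term, and 21 and 14 probes passed the adjusted threshold, none of them a member. NR5A2 EMBV3_40939 met the study's selection in these block fits (adjusted p = 0.285 and 0.381) and in no other. Without normalisation between arrays, 501 were higher and 678 lower. Leaving out control spots before the quantile step, an alternative added after the data were seen, changed no direction. WT1 and LHX9 lay near the negative controls.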
